A study of Homo sapiens with 9 samples.

Results

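The regions described here are the peaks that antibody-barcode eCLIP (ABC) placed on the human mitochondrial genome, chrM of GRCh38. They were taken as all peaks on chrM in every library, assigned by strand to the mitochondrial gene they overlapped most, and they numbered 4907 of 2478204 merged peaks over 54 libraries. The CLIPper peak lists before merging also held 4907 peaks on chrM, of 2665030. Of the merged chrM peaks, 3048 lay on heavy-strand mRNA genes, 1291 on rRNA genes, 361 on heavy-strand tRNA genes and 207 on the light strand.

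In ABC, an antibody that carries a DNA barcode holds its RNA-binding protein (RBP) after UV crosslinking, and the barcode is ligated on the beads to the bound RNA fragments, so that the libraries of several RBPs can be read from 1 tube. Multiplex ABC was made for 10 RBPs in 3 replicate pools of K562 cells, a human leukaemia line, and in 2 pools of a human embryonic kidney line that the sample titles name HEK293T, the study's text HEK293XT, and that is called HEK293 here. Singleplex ABC was made for RBFOX2 in HEK293 and for SLBP in K562, with 2 replicates each. No sample carried a genetic change or drug treatment in its label, and a pool is 1 tube of cells, so that its 10 libraries share their lysate. Both HEK293 pools are titled replicate 1 and carry K562 as the cell line among their characteristics, and 1 K562 pool is entered as K563. The titles were followed here. Nothing in the labels says that replicates came from separate cultures, so the spread between pools may be technical.

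Human mitochondrial DNA codes for 13 mRNAs, 2 rRNAs and 22 tRNAs. Both strands are transcribed as long precursors, from which tRNAs are cut out to free the mRNAs and rRNAs between them. Most genes are read off the heavy strand, which gives RNA of the sequence of the plus strand of the reference, whereas MT-ND6 and 8 of the tRNAs are read off the light strand and lie on the minus strand. The mRNAs code for subunits of complexes I, III, IV and V of the respiratory chain, and the rRNAs build the mitochondrial ribosome. The RBPs of the pools are known for work in the nucleus or cytosol: PRPF8 and SF3B4 in the spliceosome, RBFOX2 in splicing, ZC3H11A in mRNA export, DDX3 and EIF3G in translation initiation, and PUM2, IGF2BP2, LIN28B and FAM120A as regulators or binders of cytosolic RNAs. SLBP binds the stem-loop of histone mRNAs. The study counts mitochondrial RNAs among abundant background RNAs and left them out when it ranked the top SLBP genes. A peak here is thus a place with reads and does not by itself show binding by the RBP.

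The sequences below are 30 bases of the reference at the centre of the most-read peak in a class (rRNA, mRNA, tRNA or light strand) of PUM2, ZC3H11A and FAM120A, with the K562 pool in which that peak was taken. They are shown because the results on rRNA, on the ends of mRNA genes and on the light strand turn on these sites. Capitals mark bases that lay in a peak of at least 40 of the 54 libraries.

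MT-RNR2, PUM2 pool 1, chrM:2254-2283, plus strand: CCTCACACCCAATTGGACCAATCTATCACC
MT-RNR2, PUM2 pool 3, chrM:2513-2542, plus strand: CCTCTAGCATCACCAGTATTAGAGGCACCG
MT-ND4, ZC3H11A pool 1, chrM:12031-12060, plus strand: CAACATAAAACCCTCATTCACACGAGAAAa
MT-CO3, ZC3H11A pool 3, chrM:9852-9881, plus strand: actatCTGCTTCATCCGCCAACTAATATTT
MT-TF, FAM120A pool 1, chrM:605-634, plus strand: TACActgaaaatgtttagacgggctcacat
MT-ND6, FAM120A pool 1, chrM:14275-14304, minus strand: TGAATAATTTATGAAGGAGAGGGGTCAGGG

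All but 1 base of the MT-ND4 stretch, 25 of the 30 bases in MT-CO3 and the whole stretches in MT-RNR2 and MT-ND6 were common to most libraries, whatever their RBP. In MT-TF only the first 4 bases were.

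Mitochondrial RNA took a large part of the reads in few peaks. Peaks on chrM were 0.0463% to 4.16% of the merged peaks of a library but held 3.49% to 48.7% of the reads in peaks, with a median of 11.8%. A library had 25 to 157 chrM peaks, with a median of 92, and a peak was 1 to 146 bases wide, with a median of 38. The reads in merged peaks, which set how precisely these shares are known, ran from 13666 to 4421798 per library. On the plus strand, 8417 bases (50.8% of the 16569 bases of chrM) lay in a peak of at least 1 library, against 329 bases (1.99%) on the minus strand.

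The rRNAs held most of these reads. MT-RNR2, the rRNA of the large subunit (chrM:1671-3229), had a median of 72.3% of the chrM reads of a library and a range of 53.1% to 86.4%. MT-RNR1, the rRNA of the small subunit (chrM:648-1601), had a median of 13.2% and a range of 5.60% to 32.3%. All heavy-strand mRNA genes together had a median of 10.7%, the heavy-strand tRNA genes 0.845% and the light strand 0.466%.

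Within MT-RNR2 the reads were concentrated at a few places. In MT-RNR2 4 stretches, and in MT-RNR1 3, lay in a peak of all 54 libraries. The widest in MT-RNR2, chrM:2506-2557, was covered by a most-read peak with a median of 10.9% of the chrM reads (3.10% to 29.2%). After it, the most-read peak over chrM:2250-2294 had 8.27%, over chrM:2860-2890 6.73% and over chrM:2420-2453 6.44%. The most-read chrM peak of a library lay over the stretch chrM:2506-2557 in 45 libraries and over chrM:2250-2294 in 6, and it lay in MT-RNR2 in 53 of 54. The exception was replicate 2 of singleplex RBFOX2, whose most-read chrM peak was in MT-RNR1 (chrM:955-1003, 5377 reads).

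**Figure D1:**
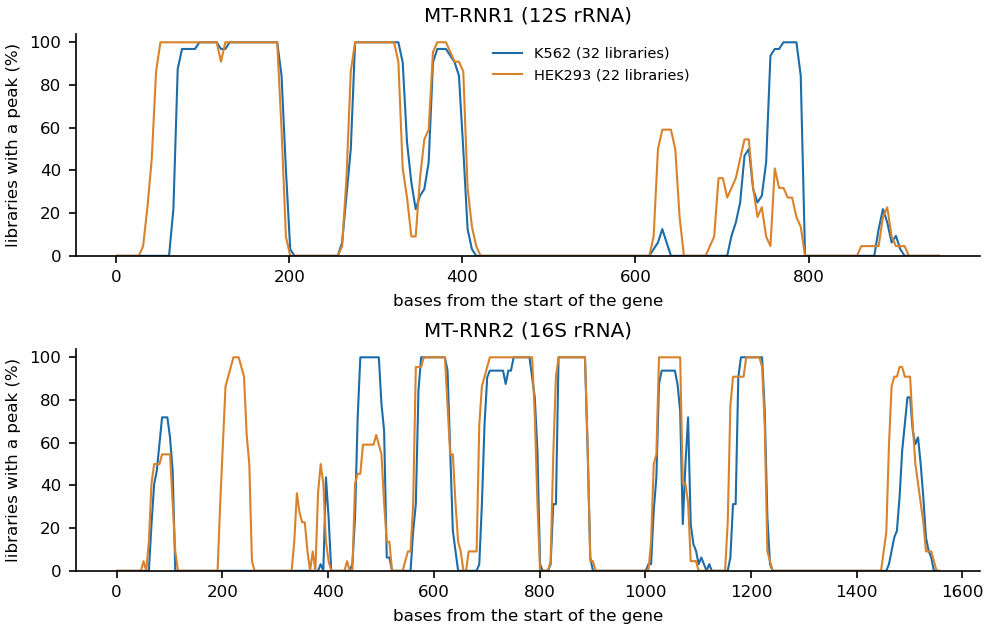
Share of libraries with a merged peak (vertical axis, %) along MT-RNR1 and MT-RNR2 by distance from the start of the gene in bases, for the 32 libraries of K562 and the 22 of HEK293, each line being 1 cell line. Most peaks coincide, but the peak about 200 bases into MT-RNR2 is found in 22 of 22 HEK293 libraries and 0 of 32 K562 libraries.

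Some rRNA peaks were found in 1 cell line in all or nearly all libraries and in few or none of the other line. At chrM:1869-1921 in MT-RNR2, 22 of 22 HEK293 libraries and 0 of 32 K562 libraries had a peak. At base 1887, where the lines differed most, it held 1.03% to 6.41% of the chrM reads in HEK293, with a median of 3.05%. At base 696 of chrM in MT-RNR1, 22 of 22 HEK293 libraries and 0 of 32 K562 libraries had a peak, with 1.09% to 4.17% of the chrM reads in HEK293, although 9 K562 libraries had one elsewhere in the stretch chrM:690-714. The reverse was found in MT-RNR1 over chrM:1399-1440, where all 32 K562 libraries and 9 of 22 HEK293 libraries had a peak. At base 1403, where the gap was largest, 30 K562 libraries (median 1.09% of the chrM reads) and 1 HEK293 library had one. The centres of the first and the last of these stretches, printed because the share of libraries with a peak there differed between the lines, are the following, with capitals as above.

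MT-RNR2, peak in HEK293, chrM:1880-1909, plus strand: caaggagagccaaagctaagacccccgaaa
MT-RNR1, peak in K562, chrM:1405-1434, plus strand: cTTAagggtcgaaggtggatttagcagtaa

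In all, with a gap of at least 50 percentage points over at least 10 bases, 5 rRNA stretches (128 bases) and 11 mRNA stretches (177 bases) had a peak in more HEK293 libraries, and 1 rRNA stretch (42 bases) in more K562 libraries. They were chosen after their values were seen and were not tested. Each pool is of 1 line, so the line, the preparation and the depth cannot be told apart.

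The share of peak reads on chrM was compared between the RBPs of a pool, with an exact two-sided permutation of the RBP labels within pools. In K562, PUM2 had the highest share of the 10 RBPs in 3 of 3 pools, at 25.6%, 18.5% and 18.0%, a mean of 20.7% ± 4.27 (SD, n = 3 pools) against 9.66% for the other 9 (difference 11.02 percentage points; exact permutation p = 0.001, the smallest these labels can give; adjusted p = 0.01). PUM2 was also highest in both HEK293 pools, at 32.7% and 48.7% against a mean of 17.9% for the other 9 (exact permutation p = 0.01, the smallest that 2 pools can give; adjusted p = 0.1).

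ZC3H11A came next in 2 of 3 K562 pools, with 15.99%, 15.71% and 17.21% of its peak reads on chrM, and in both HEK293 pools, with 26.98% and 37.88%. Its difference did not pass after adjustment (exact permutation p = 0.044, adjusted p = 0.147 in K562; p = 0.05, adjusted p = 0.25 in HEK293). FAM120A had the lowest share in 5 of 5 pools, at 6.70%, 3.49% and 4.51% in K562 and 6.84% and 11.6% in HEK293. That did not pass either (exact permutation p = 0.03, adjusted p = 0.147 in K562; p = 0.08, adjusted p = 0.267 in HEK293). PUM2 was the only one of 10 RBPs called in K562. None was in HEK293, where 1 RBP had an unadjusted p under 0.05 but 2 pools cannot give an adjusted p under 0.1 by exact permutation.

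Depth moved with this result. In 5 of 5 pools PUM2 was the shallowest library, with 13666, 18625 and 17299 reads in peaks in K562, and FAM120A was the deepest, with 948519, 2192842 and 829554. With the 938 most-read peaks of every library, as many as the smallest one held, PUM2 had 25.6%, 20.4% and 19.1% in K562 against a mean of 17.5% for the other 9, was highest in 0 of 3 pools and was no longer called (exact permutation p = 0.186, adjusted p = 0.304). On that footing ZC3H11A was highest in 2 of 3 K562 pools, with 21.3%, 27.8% and 23.3%, and in both HEK293 pools, with 48.7% and 61.7%. No RBP was called (smallest adjusted p = 0.06 in K562 by exact permutation). The largest K562 difference was that of SF3B4, which was low, at a mean of 10.6% against 18.7% for the other 9. With any 1 K562 pool left out, PUM2 remained 9.68 to 11.7 percentage points above the others, where 10 tests on 2 pools cannot give an adjusted p under 0.1.

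**Figure D2:**
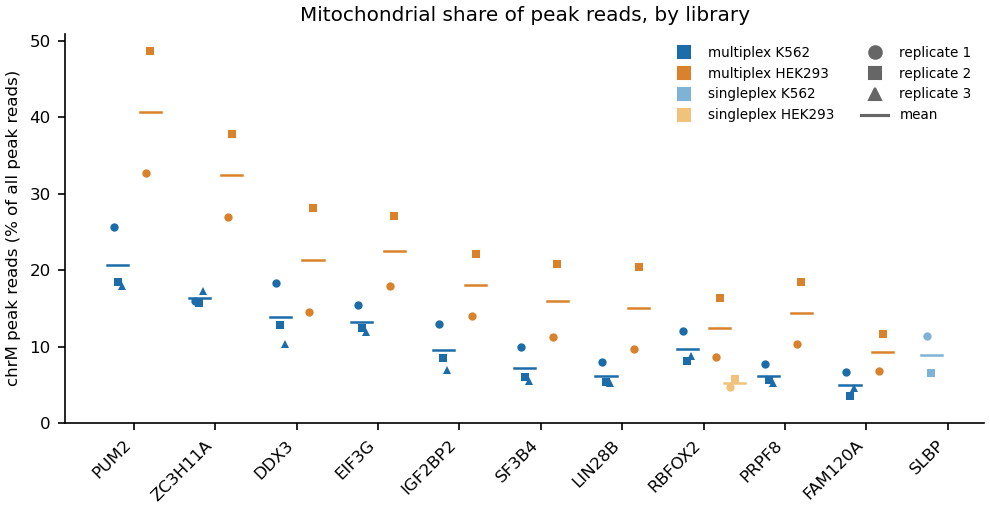
Share of reads in merged peaks that lie on chrM (vertical axis, % of all peak reads) for each RBP, with 1 point per library, coloured by set and shaped by replicate, and a line at the mean. PUM2 (18.0% to 25.6% in K562, 32.7% and 48.7% in HEK293) is highest and FAM120A lowest in each pool.

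Between sets, the mean chrM share over the 10 libraries of a pool was 13.3%, 9.66% and 9.35% in K562 and 15.3% and 25.2% in HEK293, and the groups did not overlap. The difference was 9.46 percentage points, and with 3 pools against 2 the exact permutation p was 0.1, the smallest possible. It was 14.4 without the first HEK293 pool, 4.53 without the second, and 6.03 with touching peaks counted once. In that last case the pool means were 13.4%, 9.72% and 9.50% in K562 and 13.2% and 20.6% in HEK293, so that the groups overlapped (exact permutation p = 0.3). By number of peaks in place of reads the order was reversed, with a difference of -0.421 percentage points. RBFOX2 in HEK293 had 4.75% and 5.75% in singleplex and 8.61% and 16.4% in multiplex ABC (difference 7.23; exact permutation p = 0.333, the smallest that 2 against 2 allows). That difference was 11.1 without the first multiplex pool, 3.35 without the second, and 4.54 with touching peaks counted once. SLBP, a histone mRNA binder, had 11.4% and 6.53%, on 56 and 25 chrM peaks.

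How the reads of an RBP were spread over the mitochondrial transcripts was tested as the share of chrM reads in each of 4 classes, with 40 tests per cell line. ZC3H11A differed from the other RBPs of its pools in mRNA. In K562, 19.3%, 26.8% and 24.0% of its chrM reads lay on heavy-strand mRNAs, a mean of 23.4% ± 3.79 (SD, n = 3 pools) against 12.4% for the other 9, and it was highest in 3 of 3 pools (exact permutation p = 0.001, adjusted p = 0.0133). Its rRNA share, 79.5%, 71.3% and 74.0%, was the lowest in 3 of 3 pools (mean of the others 85.9%; exact permutation p = 0.001, adjusted p = 0.0133). The 4 class shares make up all chrM reads of a library, so this is largely the mRNA result with its sign turned and not a separate one. In HEK293 the mRNA share was highest in both pools, at 19.8% and 10.9% against 8.14%, but was not called (exact permutation p = 0.01, the smallest possible, adjusted p = 0.2). With the 39 most-read chrM peaks of every library the K562 mRNA difference was 8.35 percentage points and was still called (adjusted p = 0.02 by exact permutation).

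The excess of ZC3H11A was spread over the respiratory chain. As a mean over the K562 pools, its share of chrM reads was 1.87 times that of the other 9 for the 6 heavy-strand genes of complex I, 2.47 times for complex III, 1.96 times for complex IV and 1.71 times for complex V, and was the highest of the 10 RBPs in 3 of 3 pools for each complex. In HEK293 the ratios ran from 1.63 for complex IV to 2.32 for complex III, again highest in both pools for each. These ratios belong to the same reads as the class test and are given as a description.

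By gene, ZC3H11A was the highest of the 10 RBPs in 3 of 3 K562 pools for 7 of the 12 heavy-strand mRNA genes and in both HEK293 pools for 9, with 6 genes in common: MT-ND2, MT-ND3, MT-ND4, MT-CO3, MT-ATP6 and MT-CYB. FAM120A (MT-ND4L) and IGF2BP2 (MT-CO1) were highest in 3 of 3 K562 pools for 1 gene each, and no other RBP was for any. MT-CO3, a core subunit of cytochrome c oxidase, held 1.78%, 3.43% and 3.30% of the chrM reads of ZC3H11A in K562, against a mean of 0.950% for the others. MT-ND3, a subunit of complex I, held 0.864%, 0.885% and 0.511%, against 0.214%. For MT-CYB, the cytochrome b of complex III, the values were 1.18%, 1.57% and 1.19%, against 0.532%. The smallest ratios were at MT-ND4L, a subunit of complex I, at 1.22 (0.287% against 0.234%), and at MT-CO1, the catalytic subunit of complex IV, at 1.23 (1.56% against 1.27%).

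**Figure D3:**
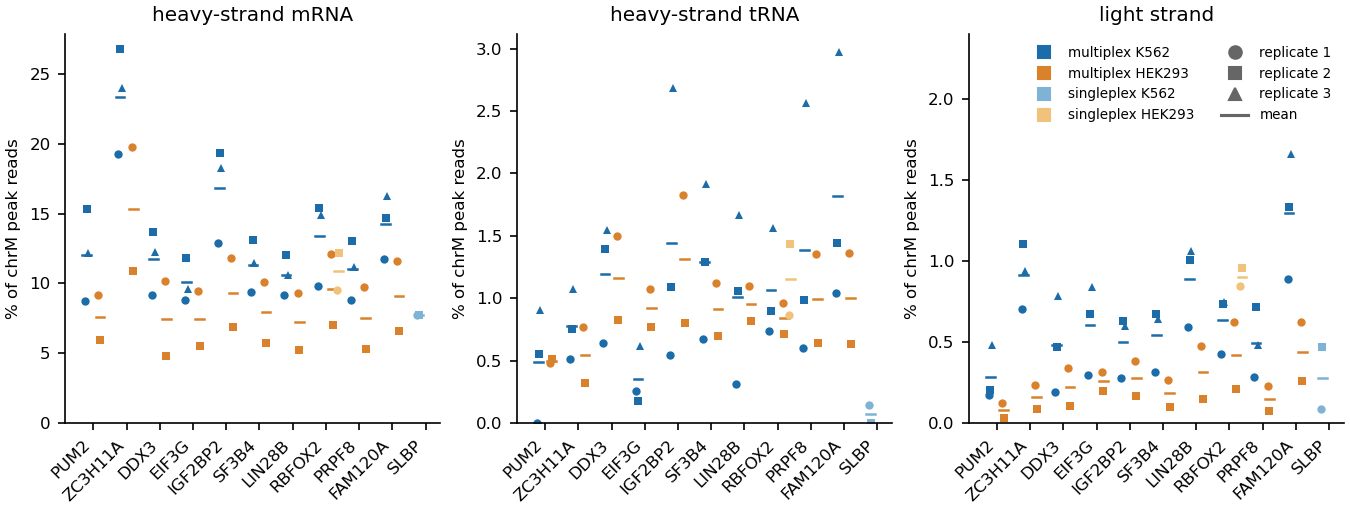
Share of chrM reads (vertical axis, %) on heavy-strand mRNA, heavy-strand tRNA and light-strand genes for each RBP, with 1 point per library and a line at the mean, on axes of different range. ZC3H11A is highest on mRNA (19.3% to 26.8% in K562) and FAM120A on the light strand in K562 (0.888% to 1.66%).

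ZC3H11A reads also lay nearer the 3′ ends of the mRNA genes. Of its heavy-strand mRNA reads, 40.2%, 41.5% and 43.6% in K562 and 39.1% and 39.8% in HEK293 were in peaks centred in the last 200 bases of a gene. The other RBPs had 21.6% to 34.3% in K562 and 18.1% to 26.6% in HEK293, so that ZC3H11A was above all others in 5 of 5 pools. These bases are 22.1% of the 10870 bases of the 12 genes. In the first 200 bases ZC3H11A had 20.02% to 25.84% in K562 and was within the range of the other RBPs (19.03% to 35.89%). In HEK293 it had 13.03% and 16.48%, the first below all other RBPs (13.78% to 23.56%).

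MT-ND4 and MT-ATP6 showed this in every pool. In MT-ND4, the last 200 bases held 41.7%, 45.01% and 40.8% of the gene's ZC3H11A reads in K562 and 41.3% and 31.7% in HEK293, above all other RBPs in 5 of 5 pools (others 12.9% to 37.7% and 13.6% to 27.7%). In MT-ATP6 they held 33.8%, 47.6% and 54.6% in K562 and 53.9% and 52.2% in HEK293, likewise above all others in 5 of 5 pools. In MT-CO3 this was so in 4 of 5 pools, and in MT-ND1, MT-CO1, MT-ND3 and MT-ND4L in 0 of 5. In MT-ND2 and MT-CO2 it was so in 2 of 3 K562 pools and 0 of 2 HEK293 pools. In MT-CYB and MT-ND5 it was so in 0 of 3 and 1 of 2. MT-ATP8 is 207 bases long, so that 100% of its reads counted for every RBP. The measure was chosen after its values were seen and was not tested. With the last 300 bases ZC3H11A stayed above all others in 5 of 5 pools, and with the last 100 bases in 4 of 5.

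**Figure D4:**
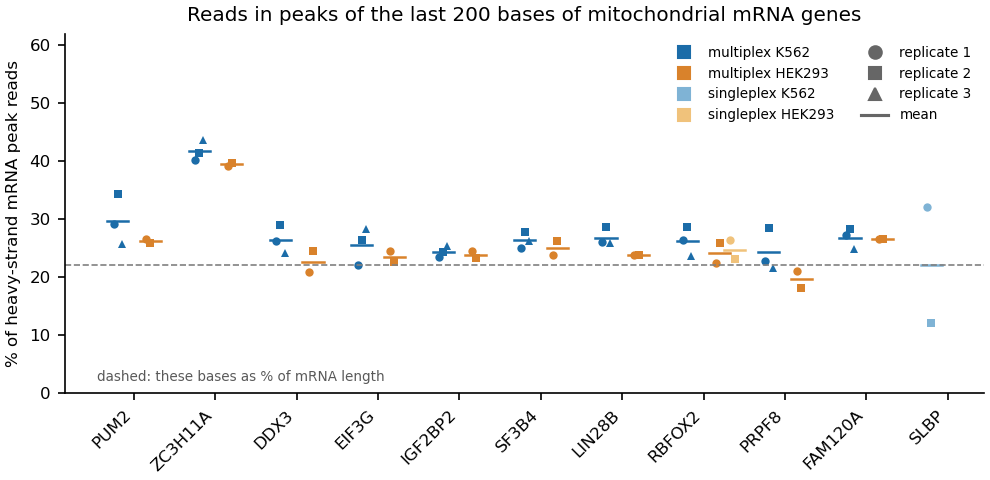
Share of heavy-strand mRNA reads in peaks centred in the last 200 bases of a gene (vertical axis, %) for each RBP, with 1 point per library, a line at the mean and a dashed line at the 22.1% that these bases make of the length. ZC3H11A lies at 39.1% to 43.6% and the other multiplex libraries at 18.1% to 34.3%.

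Per kilobase of gene, both rRNAs held more reads than any mRNA. As a median over the K562 multiplex libraries, MT-RNR2 had 46.3% of chrM reads per kb and MT-RNR1 12.7%, MT-ATP8 2.58%, MT-ATP6 2.39% and MT-ND4 1.99%. The lowest were MT-CYB, with 0.474%, and MT-ND5, with 0.491% per kb. In HEK293 the order of the rRNAs was the same (46.3% and 17.4% per kb), and MT-ATP6, at 1.89%, and MT-ATP8, at 1.28%, again led the mRNAs. MT-ATP8 and MT-ATP6 overlap on one transcript, as do MT-ND4L and MT-ND4, and a peak over both was given to the gene it overlapped most. Outside the rRNAs, the most-read peak of a library was in MT-ND4 in 38 of 54 libraries and in MT-ATP6 in 8.

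Light-strand peaks lay on MT-ND6, the only mRNA of that strand, and on MT-TP and MT-TY, the tRNAs for proline and tyrosine. MT-ND6 (chrM:14149-14673) had a peak in 53 of 54 libraries, MT-TP in 47 and MT-TY in 28, and no other light-strand gene had any. In K562, FAM120A held the largest light-strand share in 3 of 3 pools, with 0.888%, 1.33% and 1.66% of its chrM reads against a mean of 0.593% for the other 9 (exact permutation p = 0.001, adjusted p = 0.0133). MT-ND6 made most of it, with 0.817%, 1.09% and 1.18%, against 0.3996% for the others. In HEK293 the FAM120A share was 0.622% and 0.258%, highest in 1 of 2 pools (exact permutation p = 0.02, adjusted p = 0.2).

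FAM120A was the deepest library of each pool, and the part of depth in this result was not tested. When the 39 most-read chrM peaks of each library were used, the FAM120A difference went from 0.700 to 0.203 percentage points and was no longer called (adjusted p = 0.653 by exact permutation). Under that alternative LIN28B was called for the light strand.

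Of the 22 tRNA genes, 13 had a peak in some library. The ones with a peak in at least 27 libraries, which were named by rule, were MT-TF in 51, MT-TV in 47, MT-TG in 33, MT-TI in 32, MT-TL2 in 31 and MT-TT in 28 of 54, beside MT-TP and MT-TY on the light strand. MT-TF, the tRNA for phenylalanine, and MT-TV, the tRNA for valine, flank MT-RNR1. They held medians of 0.199% and 0.324% of the chrM reads. MT-TP had 0.123%, and the others had medians under 0.1%.

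In K562, FAM120A had the largest heavy-strand tRNA share in 3 of 3 pools, with 1.04%, 1.45% and 2.97% against 1.00% for the other 9 (exact permutation p = 0.002, adjusted p = 0.02). EIF3G had 0.258%, 0.173% and 0.618% against 1.16%, lowest in 2 of 3 pools (exact permutation p = 0.003, adjusted p = 0.024). Neither was called in HEK293, where FAM120A had 1.36% and 0.634% and EIF3G 1.07% and 0.772% (adjusted p = 0.865 and 0.985 by exact permutation). FAM120A was the deepest library and EIF3G, after PUM2, the second shallowest in 5 of 5 pools (32490, 46678 and 46138 reads in peaks in K562). With the 39 most-read chrM peaks the FAM120A difference turned to -0.0415 percentage points (exact permutation, adjusted p = 0.954) and that of EIF3G was -0.312 (adjusted p = 0.589).

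The authors compared each peak with an external background, and a peak was enriched here with P under 0.001 and a fold above 8, the study's limits. In K562 multiplex libraries 1897 of 2497 chrM peaks were enriched, or 76.0% (95% exact binomial interval 74.2% to 77.6%, covering counting error only), where 49.9% of all merged peaks were. In HEK293 it was 674 of 2028, or 33.2% (31.2% to 35.3%), where 34.7% of all were. The libraries repeat the same sites, so these peaks are not independent and both intervals are too narrow. For SLBP it was 68 of 81 (84.0%; all peaks 55.3%) and for singleplex RBFOX2 35 of 301 (11.6%; all peaks 10%). With a stricter limit, a fold above 16 and P under 1e-05, the enriched shares of the chrM peaks were 62.5% in multiplex K562 (29.1% of all peaks), 24.7% in multiplex HEK293 (18.2% of all), 76.5% for SLBP (25.5% of all) and 3.32% for singleplex RBFOX2 (5.3% of all). With any fold above 1 and P under 0.001 they were 90.5% (49.9% of all), 43.1% (41.6% of all), 87.7% (55.3% of all) and 37.5% (10.5% of all) in the same order. With libraries pooled, multiplex K562 and SLBP stayed above the share of all peaks under each limit. HEK293 multiplex peaks were below it at 8-fold and above it at the other limits, and singleplex RBFOX2 was below it at 16-fold. By library at 8-fold, 25.3% to 100% of peaks outside chrM were enriched in multiplex K562 and 6.84% to 66.6% in multiplex HEK293. The chrM share was lower in all K562 pools of PUM2, pools 1 and 3 of ZC3H11A, pool 1 of DDX3 and pool 3 of SF3B4. It was also lower in SLBP replicate 2 and higher in the other K562 libraries. In multiplex HEK293 it was higher only in both RBFOX2 pools and in pool 2 of DDX3 and PRPF8.

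The enriched share differed by class and line. All K562 rRNA peaks (100%) and 96.7% of those in HEK293 were enriched, but 68.6% of the K562 mRNA peaks against 1.29% in HEK293. The tRNA peaks were enriched in 66.9% and 67.7%, and the light-strand peaks in 60.9% and 24.4%. The external background differed as well. A K562 rRNA peak had 1 or 2 background reads, where 1 also stands for none, and an mRNA peak a median of 21. In HEK293 the medians were 7262 and 14123.5. For tRNA peaks in HEK293 the medians by RBP ran from 14 (RBFOX2) to 257 (DDX3), where mRNA peaks had 693.5 and 16595. Light-strand peaks of DDX3 there had 144 to 19909 background reads. The part of the background in these class differences was not tested. The 100% of enriched K562 rRNA peaks thus rests on a nearly empty background and says little about binding. Enrichment of chrM peaks over the external background can therefore not be set side by side between the lines or the classes.

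The complement control (CC) of a library is made from the remaining 9 of its pool, and a fold over it was given for K562 pool 3. Over the CC, 0 of 790 chrM peaks passed the same limits. A floor of 3 counts of 790 is 0.380%, and the 95% exact binomial interval runs to 0.466%. Of all peaks 15.9% passed over the CC. Over the external background 599 of those 790 chrM peaks (75.8%) had passed, where 52.5% of all did. With any fold above 1 and P under 0.001, 166 of 790 chrM peaks (21.0%) passed over the CC, against 25.1% of all peaks. At the stricter limit it was 0% of the chrM peaks over the CC (4.08% of all) and 62.7% over the external background in this pool (31% of all). Without a limit on size, 91.3% of the chrM peaks passed over the external background (52.5% of all). This pool has no replicate with a fold over the CC, so these values carry no test between RBPs.

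**Figure D5:**
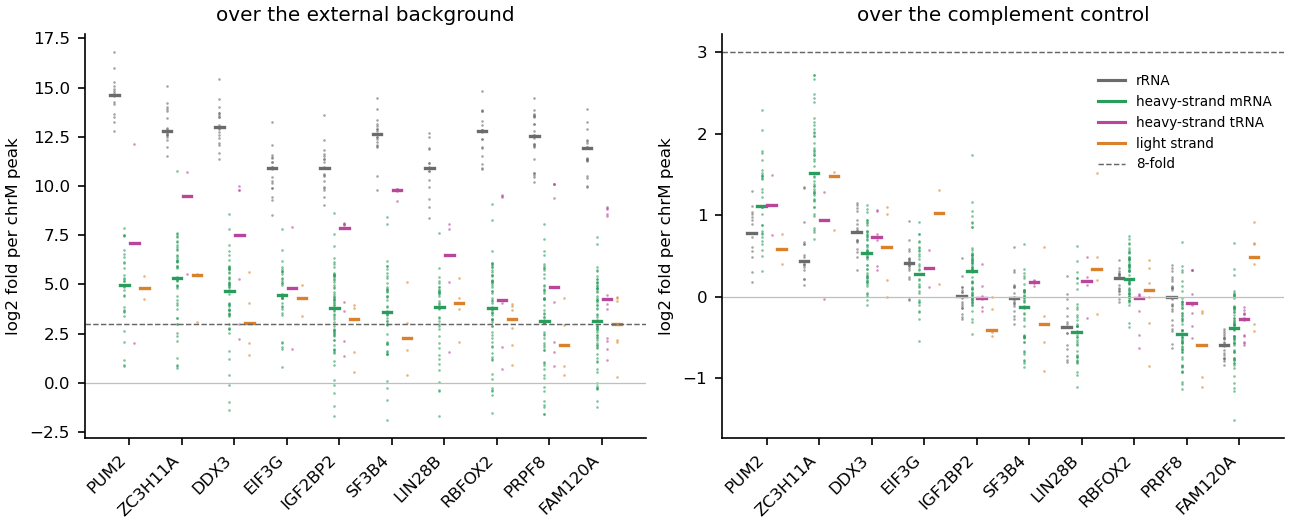
Log2 fold of each chrM peak of K562 pool 3 over the external background (left) and over the CC (right), by RBP and class, with 1 point per peak, a bar at the median and a dashed line at 8-fold. Grey rRNA peaks lie far above the line on the left, and no chrM peak reaches it on the right.

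ZC3H11A had the highest median log2 fold over the CC, 1.33 over its 72 chrM peaks, with 1.52 for mRNA and 0.44 for rRNA. Of these peaks 59 had P under 0.001 with a fold above 1, where 25.4% of all peaks of that library did. The largest folds were at the ends of genes: chrM:9803-9930 in MT-CO3 at 6.61-fold on 161 reads, chrM:15815-15871 in MT-CYB at 6.58-fold on 35 reads, and chrM:5435-5489 in MT-ND2 at 6.37-fold on 80 reads. MT-ND4 (chrM:12073-12110) had 5.58-fold and MT-ATP6 (chrM:9159-9192) 5.44-fold.

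The other RBPs were nearer to the pool. PUM2 followed with a median log2 fold of 0.99 (20 of 50 peaks with P under 0.001 and a fold above 1, where 41% of all its peaks did) and DDX3 with 0.58 (33 of 82; 27.2% of all). FAM120A had the lowest median, -0.45. Only 3 of its 107 chrM peaks passed, all on the light strand (26.4% of all its peaks), and its highest, chrM:14514-14530 in MT-ND6, was 1.88-fold. IGF2BP2 had a median of 0.09 (16 of 97; 14.3% of all), with its highest peak in MT-ND5 at chrM:12581-12654, 3.34-fold on 101 reads. EIF3G had a median of 0.37 (10 of 56; 37.3% of all) and RBFOX2 of 0.20 (14 of 93; 14.7% of all). For SF3B4, PRPF8 and LIN28B the medians were -0.06, -0.25 and -0.36, with 3 of 74 (45.1% of all), 6 of 96 (27.9% of all) and 2 of 63 (35.8% of all). A fold over the CC is set by all 10 libraries at once, and a higher chrM share in 1 library lowers it in the others.

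Known motifs of the RBPs were looked for in the plus-strand sequence of chrM. GCATG, the DNA letters of the RBFOX2 motif, occurs at 4 places there. It was in 0.823% of all plus-strand windows of 38 bases, the median length of a peak, and 83 of the 4907 chrM peaks (1.69%) held it whole. These 83 are repeated calls of the sites in MT-RNR2 (53 libraries), MT-CYB (23) and MT-ND5 (7). They are not independent, and their share was not tested against that of the windows. The site in MT-RNR2, the most widely covered, is shown with the motif in capitals.

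MT-RNR2, RBFOX2 motif, chrM:2424-2453, plus strand: aacccaacacagGCATGctcataaggaaag

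That site (chrM:2436-2440) lay whole in a peak of 6 of 7 RBFOX2 libraries and 47 of 47 others. Each of its bases was in a peak of all 54 libraries. In singleplex RBFOX2 replicate 1 a peak of 9287 reads (chrM:2406-2438) ended within the motif. The site in MT-CO1 (chrM:5973-5977) lay whole in no peak. The site in MT-CYB (chrM:14831-14835) lay whole in a peak of 7 of 7 RBFOX2 and 16 of 47 other libraries. For the one in MT-ND5 (chrM:12895-12899) it was 4 of 7 and 3 of 47. RBFOX2 libraries are deep, with 370175 to 4421798 reads in peaks, and the part of depth in these counts was not tested. In K562 pool 3 the highest RBFOX2 fold over the CC was at chrM:12897-12940 in MT-ND5, which held part of that site, at 1.67-fold on 41 reads, with a −log10 P of 2.36. TGTANATA, the PUM2 motif, occurs once on the plus strand (chrM:12137-12144) and lay whole in no peak. On the minus strand GCATG has 15 places and TGTANATA 4, none of them whole in a peak.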

How the data were processed

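The labels gave the RBP, the line and the replicate of each ABC library, of 11 RBPs in all. The authors trimmed adapters (cutadapt 2.8), set aside reads from repetitive elements and multi-mapped reads, aligned the rest to GRCh38 with STAR 2.7.6 and called peaks with CLIPper. As only uniquely mapped reads were kept, reads that also match a nuclear copy of mitochondrial DNA are not counted. As external backgrounds the study's methods name RNA-seq, from a public HEK293 set and, for K562, from the ENCODE project. They also name the size-matched inputs of eCLIP. Which of these stands behind a library is not given here. The background reads differed between RBPs of a line. For mRNA peaks the K562 medians ran from 6 (EIF3G) to 59 (PUM2). In HEK293 the median was 693.5 for RBFOX2 and at least 15233 for the others.

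The authors deposited for each CLIPper peak a p-value and a display score, which were not tested here. For each merged peak the authors deposited a log2 fold over the external background with its −log10 P (at most 400), and for K562 replicate 3 also over the CC. The chi-squared lists of the other pools were not used. The count of reads in a peak was taken from the authors' deposited peak names in 22 libraries, and in the other 32 recovered as the ratio of whole numbers behind the deposited log2 fold (relative tolerance 1e-12, found for 100% of peaks). Its multiplier was settled by P or by overlapping peaks, apart from 170 chrM peaks. With the names hidden in the 22 libraries, recovery gave 98.2% to 102% of the chrM reads and the exact count for 89.2% to 98.2% of the chrM peaks. Reads between touching peaks count in each.

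Genes came from GENCODE 44. Shares were tested by exact two-sided permutation of the RBP labels within pools, and adjusted by Benjamini-Hochberg over each kind of share and cell line, with a threshold of 0.05. The pool was a block because its libraries come from 1 tube. The permutation test was also run on simulated shares, with 1 RBP shifted and the same spread for every RBP. Those simulations held no differences in depth, so they do not vouch for the calls made here. Intervals are exact binomial and cover counting error only. They take peaks as independent, although libraries repeat the same sites, and are thus too narrow. All mRNA and rRNA genes were described, and a tRNA gene was named with a peak in at least 27 libraries or on the light strand. Named peaks were the most-read ones of an RBP and pool, and the highest over the CC, the latter chosen after their values were seen. The peaks and gene lists were chosen with earlier results of these data known. Alternatives were other thresholds, peak numbers in place of reads, peaks of at least 10 reads, log2 shares, gene assignment by the peak's centre, no block, and leaving out each pool. The use of equal numbers of most-read peaks and other end lengths were added after seeing the data. Python 3.11.15, numpy 2.4.6, scipy 1.17.1 and matplotlib 3.10.9 were used.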

Additional observations from a re-analysis of the deposited data

How the results depend on the processing

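In K562 the number of RBPs called for the chrM share was 1 (PUM2) and stayed so with touching peaks counted once, by number of peaks, by CLIPper peaks before merging, with only enriched peaks and without the replicate block. It was 3 with only peaks of at least 10 reads (FAM120A, PUM2 and ZC3H11A), 2 on the log2 scale (FAM120A and PUM2) and 0 with the most-read peaks. The number of class shares called was 5, among them ZC3H11A on mRNA and on rRNA, which are not separate results. It was 1 by number of peaks, merged or before merging (ZC3H11A on mRNA), 2 with only enriched peaks and 3 with the most-read chrM peaks. Without the replicate block it was 3 (ZC3H11A on mRNA and rRNA, FAM120A on the light strand), so that the 2 tRNA calls rest on the block. Both counts were 0 to 0 with 1 pool left out, where 2 pools cannot give a lower adjusted p than 0.1. The ZC3H11A difference on mRNA was then 10.2 to 11.8. The FAM120A difference on tRNA turned to -0.0415 with the most-read chrM peaks, and the difference between the pools of the lines to -0.421 by number of peaks. The causes were not tested. In HEK293 no RBP or class was called under any alternative run. With 2 pools and the replicate block, exact permutation cannot give an adjusted p under 0.1 there, so those runs could not give a call. With a fold above 16 and P under 1e-05, or with any fold above 1, the enriched share of chrM peaks was 62.5% or 90.5% in multiplex K562, 24.7% or 43.1% in multiplex HEK293 and 3.32% or 37.5% in singleplex HEK293, and over the CC 0% or 21.0%.

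A peak had to be called to be counted, and PUM2 and EIF3G libraries, the shallowest, hold few reads on tRNA and light-strand genes. The shares say nothing of reads outside peaks. In 32 libraries the reads were recovered from the fold. Values over the CC come from 1 pool.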

Other observations

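Reads over MT-ND6 were also frequent in singleplex RBFOX2, with 0.673% and 0.775% of the chrM reads in HEK293, where the multiplex libraries of that line had a median of 0.122% and at most 0.440%. The light-strand tRNA gene MT-TP had 20 of 21 peaks enriched over the external background in multiplex HEK293, where 0 of 48 peaks on MT-ND6 and 0 of 13 on MT-TY were (34.7% of all peaks). In multiplex K562 it was 22 of 26 for MT-TP, 45 of 71 for MT-ND6 and 0 of 13 for MT-TY (49.9% of all peaks). Background reads differed widely between light-strand peaks, from 144 to 19909 for DDX3 in HEK293. Their part in these contrasts was not tested.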
